A study of Mus musculus with 30 samples.

Results

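Fgf7 and Fgf10, which encode ligands of the fibroblast growth factor (FGF) family, and the receptor genes Fgfr1, Fgfr2 and Fgfr3 were followed through RNA sequencing libraries of stromal cells sorted from the thymus of newborn mice. They were chosen by symbol, each symbol matched 1 row, and they make up 5 of the 18847 genes of the deposited table. All mice were of strain B6.SJL and of mixed sex, were injected on postnatal day 1 and gave thymus on postnatal day 3, when they were 3 days old. One treatment was Trap (aflibercept, a decoy built from VEGF receptor domains that takes up VEGF-A) and the other hFC antibodies, called control here. From cells negative for CD3, CD4, CD8, CD45 and TER119, 5 populations were sorted. They were mesenchyme positive for CD140a, mesenchyme positive for CD146, cortical epithelium (cTEC, positive for EpCAM and Ly51), medullary epithelium (mTEC, positive for EpCAM, with Ly51 low or absent) and endothelium positive for CD31, the mesenchyme and the endothelium being negative for EpCAM and the mesenchyme for CD31. Each population gave 4 Trap and 2 control libraries, 30 in all. The labels do not say how many animals stand behind a library, so every p-value here measures the spread between libraries, which may be partly technical.

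FGFs are secreted proteins that bind a receptor tyrosine kinase together with heparan sulfate on the cell surface. FGF7 and FGF10 bind chiefly the IIIb splice form of FGFR2, the form made by epithelia, while the IIIc forms of FGFR1 and FGFR3 bind ligands such as FGF2 and FGF18. A bound receptor acts through the adaptor FRS2 and the RAS and MAP kinase relay, and it induces its own inhibitors, among them the Sprouty and DUSP proteins. In the thymus, mesenchyme is known as a source of FGF7 and FGF10, and mice that lack FGF10 or the IIIb form of FGFR2 have a small thymus.

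The values are FPKM, fragments scaled to gene length and library size, as the authors deposited them. Their sum over all genes was 184608 in the lowest library and 241993 in the highest, with 10298 to 13661 genes at 1 FPKM or more. The number of reads behind a value is unknown, so the spread between libraries is the only measure of precision. The sorted populations carried the transcripts they were sorted for: Pdgfra (CD140a) averaged 121 FPKM in CD140a-positive and 2.16 FPKM in CD146-positive mesenchyme, Epcam averaged 306 FPKM in cTEC and 472 FPKM in mTEC, and Pecam1 (CD31) averaged 321 FPKM in endothelium. For Mcam (CD146) the means were 131 FPKM in mesenchyme sorted by CD146 and 110 FPKM in endothelium. In 1 library, endothelium Trap replicate 2, a list of 5 epithelial markers summed to 49.2 FPKM, against 1.92 to 13.5 FPKM in the other 5 endothelial libraries.

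Both ligand genes were transcripts of CD140a-positive mesenchyme. Fgf10 stood at 38.4 FPKM at the lowest, 42.9 at the median and 64.9 at the highest of the 6 CD140a libraries, and it stayed under 1 FPKM in all 24 libraries of the other populations, 6 of which listed it at 0. Fgf7 stood at 17.99, 29.5 and 43.9 FPKM (lowest, median and highest) in CD140a-positive mesenchyme, and it did not exceed 2.72 FPKM in any of the other 24 libraries. For both genes no CD140a library overlapped a library of another population. The share of all genes set apart in this way was not counted. Within CD140a-positive mesenchyme, 633 genes had a higher mean FPKM than Fgf10 and 1298 a higher mean than Fgf7. The ratio of Fgf10 to Fgf7 within a CD140a library was 1.68 ± 0.316 (SD, n = 6), and Fgf10 was the higher of the pair in every one, with ratios of 1.32 to 2.22.

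**Figure D1:**
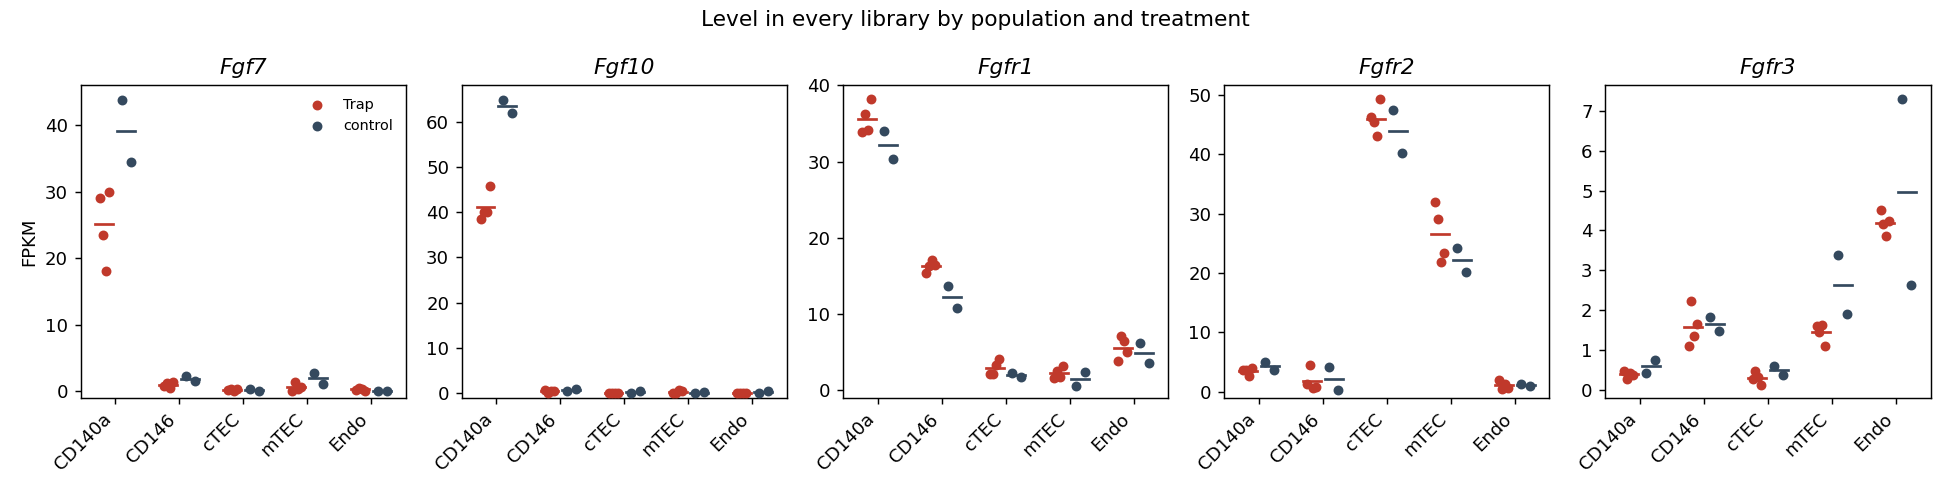
FPKM of each gene in every library (points) with the group mean (short lines), by population on the horizontal axis, Trap left of control in each population; each panel has its own linear scale. Fgf7 and Fgf10 are high in CD140a-positive mesenchyme alone among the 5 populations, Fgfr1 is highest in CD140a-positive mesenchyme, Fgfr2 in cTEC and Fgfr3 in endothelium.

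The tests compared populations on the log2(FPKM + 1) scale in limma, with 1 mean for each of the 10 groups, and called a gene at a Benjamini-Hochberg adjusted p under 0.05 over the 16425 genes that reached 1 FPKM in at least 2 libraries. All 5 genes passed that filter. Over the 5 genes and the 10 pairs of populations, 39 of 50 tests were called, where 45% of all tests over all genes and the same pairs were called. The share of genes called was 31.2% between the 2 mesenchymal populations and 41.2% between cTEC and mTEC. It was 43.9%, 57.2% and 41.0% for CD140a-positive mesenchyme against cTEC, mTEC and endothelium, and 41.6%, 55.7% and 35.7% for CD146-positive mesenchyme against the same 3. It was 44.7% for cTEC and 57.8% for mTEC, each against endothelium. Fgf10 was higher in CD140a-positive than in CD146-positive mesenchyme, its next population, by 5.10 ± 0.17 (log2, SE; limma adjusted p = 6.92e-18). Fgf7 was higher there by 3.77 ± 0.22 (log2, SE; limma adjusted p = 1.598e-13).

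Below CD140a-positive mesenchyme the order of Fgf7 was CD146-positive mesenchyme (1.27 ± 0.625 FPKM, SD, n = 6), mTEC (1.03 ± 0.964), cTEC (0.223 ± 0.141) and endothelium (0.190 ± 0.211). CD146-positive mesenchyme and mTEC were not told apart (log2 difference 0.19, 95% interval -0.25 to 0.64), except after quantile normalization (0.64, limma adjusted p = 0.0189). cTEC and endothelium were not told apart either (0.09, -0.35 to 0.54). mTEC lay above cTEC by 0.76 ± 0.22 (log2, SE; limma adjusted p = 0.00596), although their libraries overlapped, and without mTEC control replicate 1, the library with the highest value, this call was lost (cTEC minus mTEC -0.55, limma adjusted p = 0.0842), as it was after quantile normalization (-0.28, adjusted p = 0.351). The 8 mural markers summed to 503 to 759 FPKM in mTEC and 96.3 to 144 FPKM in cTEC. The 9 fibroblast markers summed to 36.0 to 43.2 FPKM in mTEC and 18.2 to 23.0 FPKM in cTEC. The part of such RNA in the Fgf7 values was not tested. For Fgf10 the other 4 populations averaged 0.0767 to 0.492 FPKM. Of the 6 pairs among them, CD146-positive mesenchyme against cTEC was the 1 called (log2 difference 0.47 ± 0.17, SE, limma adjusted p = 0.0311). That call was lost without cTEC control replicate 1 (0.34, limma adjusted p = 0.193), CD146 control replicate 2 (0.36, adjusted p = 0.171) or CD146 Trap replicate 1 (0.43, adjusted p = 0.0583). Other pairs were called under other settings. CD146-positive mesenchyme against endothelium was called with a pseudocount of 0.1 (1.63, limma adjusted p = 0.0258), as TPM (1.24, adjusted p = 0.0184), at a filter of 5 FPKM (0.42, adjusted p = 0.0457) and with a block of treatment and replicate number (adjusted p = 0.0472). It was also called without CD146 control replicate 1, CD146 Trap replicate 2 or endothelium control replicate 2 (limma adjusted p = 0.0453, 0.0353 and 0.0243). CD146-positive mesenchyme against mTEC was called as TPM (0.995, limma adjusted p = 0.0422) and after quantile normalization (0.57, adjusted p = 0.00263).

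In GRCm38, Fgf7 lies on the plus strand at chr2:126034658-126091185 and Fgf10 on the plus strand at chr13:118669791-118792115. Fam227b overlaps Fgf7 and the antisense gene Gm16263 overlaps Fgf10, both on the opposite strand, and no source used here says that the counting used strand, so reads of such partners cannot be told apart. The 250 bases before the RefSeq start of each gene (build GRCm38.p6) are shown because the 2 ligand genes share their population. The Fgf7 window lies directly before the annotated gene, but the Fgf10 window lies within the annotated span of its gene. They lie at chr2:126034408-126034657 for Fgf7 and chr13:118714449-118714698 for Fgf10, on the plus strand, written from 5′ to 3′ with the motif matches in capitals, and neither window overlaps an annotated exon.
Fgf7: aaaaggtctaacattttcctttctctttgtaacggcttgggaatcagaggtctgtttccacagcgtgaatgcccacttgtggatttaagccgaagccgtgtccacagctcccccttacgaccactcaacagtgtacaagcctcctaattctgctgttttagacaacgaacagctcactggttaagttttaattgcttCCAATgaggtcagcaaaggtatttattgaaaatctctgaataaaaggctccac
Fgf10: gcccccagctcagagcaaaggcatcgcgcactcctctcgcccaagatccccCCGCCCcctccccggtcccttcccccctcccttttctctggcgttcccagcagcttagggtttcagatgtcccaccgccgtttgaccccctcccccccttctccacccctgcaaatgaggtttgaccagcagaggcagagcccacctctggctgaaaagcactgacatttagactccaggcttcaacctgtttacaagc
Both strands were searched for the motifs TATAAA and CCAAT and for the motif GGGCGG. Fgf7 held CCAAT 53 bases before its start, and Fgf10 held the reverse of GGGCGG 199 bases before its start. Of 32851 mouse promoter windows of the same length, 33.8% held CCAAT, 32.7% GGGCGG and 12.4% TATAAA, so each match is a common one. The Fgf7 window was 43.6% G and C and the Fgf10 window 61.2%, with a median of 52.4% over all windows. The coding sequences of the 2 ligands, of 582 and 627 bases in their longest GENCODE form, were 58.8% identical over 634 aligned positions.

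The receptors were divided between mesenchyme, epithelium and endothelium. Fgfr1, whose product carries FGF2 signals in mesenchyme, stood at 30.4, 34.04 and 38.2 FPKM (lowest, median and highest of 6) in CD140a-positive mesenchyme and at 10.8, 15.8 and 17.1 FPKM in CD146-positive mesenchyme. It averaged 5.33 ± 1.47 FPKM in endothelium, 2.61 ± 0.902 FPKM in cTEC and 1.99 ± 0.907 FPKM in mTEC (SD, n = 6). The CD140a libraries did not overlap the CD146 libraries, and these did not overlap the endothelial ones, a separation not counted over all genes. The endothelial libraries, at 3.56 to 7.13 FPKM, overlapped those of cTEC, at 1.74 to 4.07 FPKM. Each of these steps was called: 1.21 ± 0.19 from CD140a-positive to CD146-positive mesenchyme, 1.31 ± 0.19 from there to endothelium and 0.85 ± 0.19 from endothelium to cTEC (log2, SE; limma adjusted p = 1.49e-05, 3.16e-06 and 6.60e-04). cTEC and mTEC were not told apart (log2 difference 0.32, 95% interval -0.08 to 0.72), except after quantile normalization (0.79, limma adjusted p = 0.00112) and without mTEC control replicate 2 (0.61, adjusted p = 0.0151). Fgfr1 lies on the plus strand at chr8:25513654-25575718, where the antisense gene Gm16159 overlaps it.

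Fgfr2 was the receptor gene of the epithelium. It stood at 40.2, 45.9 and 49.3 FPKM (lowest, median and highest of 6) in cTEC and at 20.2, 23.8 and 32.0 FPKM in mTEC. No cTEC library overlapped an mTEC library, and no mTEC library overlapped one of CD140a-positive mesenchyme, which averaged 3.76 ± 0.767 FPKM (SD, n = 6). How many of all genes were separated likewise was not counted. cTEC was above mTEC by 0.87 ± 0.28 and mTEC above CD140a-positive mesenchyme by 2.38 ± 0.28 (log2, SE; limma adjusted p = 0.0155 and 5.56e-08). The first of these calls depended on settings: its adjusted p was 0.120 with a pseudocount of 0.1, and 0.0639 and 0.0616 without cTEC control replicate 1 or mTEC control replicate 2. In cTEC, 835 genes had a higher mean FPKM than Fgfr2, and in mTEC 1954 did.

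In CD146-positive mesenchyme Fgfr2 was uneven. It stood at 1.36, 4.46, 0.65 and 0.82 FPKM in Trap replicates 1 to 4 and at 4.10 and 0.35 FPKM in control replicates 1 and 2, so 1 library of each treatment was high. The 9 fibroblast markers summed to 841 FPKM in the high Trap library and 751 FPKM in the high control library, against 508 to 599.9 FPKM in the other 4 CD146 libraries, and all 9 were above 0 in each library. The 5 epithelial markers summed to 4.46 and 1.54 FPKM in these 2 libraries, within the 0.41 to 5.18 FPKM of the population, and 1 of the 5 was at 0 in each. The 7 cortical epithelial markers summed to 22.99 FPKM in the high Trap library and 20.06 FPKM in the high control library, with none of the 7 at 0 in either, against 13.5 to 17.2 FPKM in the other 4. The part of these cell types in the Fgfr2 values was not tested. CD140a-positive mesenchyme was above CD146-positive mesenchyme by 0.92 ± 0.28 (log2, SE; limma adjusted p = 0.0141), and without CD146 control replicate 2 this was 0.44 and no longer called (limma adjusted p = 0.273). It was also lost without CD140a control replicate 1 (0.82, limma adjusted p = 0.073). Endothelium, at 0.40 to 2.01 FPKM, was not told apart from CD146-positive mesenchyme (log2 difference of CD146 to endothelium 0.31, 95% interval -0.27 to 0.90), except without CD146 control replicate 2, when the difference was 0.79 (limma adjusted p = 0.0269).

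FPKM per gene cannot show which splice form of Fgfr2 a cell makes, and that form decides whether FGF7 and FGF10 bind. The exon of the third immunoglobulin-like domain that makes the IIIb form is given for this reason. IIIb and IIIc were found as the one pair of internal exons of like length that no coding transcript of the annotation combines, and IIIb is taken as the one transcribed first. In GRCm38 exon IIIb lies at chr7:130199758-130199905 on the minus strand.
Fgfr2 exon IIIb: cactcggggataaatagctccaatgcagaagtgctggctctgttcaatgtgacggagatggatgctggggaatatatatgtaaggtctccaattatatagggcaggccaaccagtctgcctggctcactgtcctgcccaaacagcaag
The exon is 148 bases long. Of 17 coding transcripts of Fgfr2 in GENCODE M21, 10 hold IIIb, 5 hold IIIc, 0 hold both and 2 hold neither. The gene as annotated spans chr7:130162451-133123350, a length set by a single long transcript, and 69 other genes overlap that span.

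Esrp1 and Esrp2, RNA-binding proteins known to promote the IIIb exon in epithelial cells, were high where Fgfr2 was. Esrp1 averaged 27.5 ± 2.70 FPKM in cTEC and 55.9 ± 2.75 FPKM in mTEC, and 0.025 to 0.303 FPKM in the other 3 populations (SD, n = 6). Esrp2 averaged 6.97 FPKM in cTEC, 17.2 FPKM in mTEC and 0.547 to 1.105 FPKM elsewhere. Their order within the epithelium was the opposite of that of Fgfr2: cTEC lay below mTEC by -0.97 ± 0.16 for Esrp1 and -1.22 ± 0.22 for Esrp2 (log2, SE; limma adjusted p = 1.16e-05 and 4.86e-05). Of the 6 splicing regulators listed, 3 were higher and 0 lower in cTEC than in the mean of the other 4 populations, and 3 were higher and 1 lower in mTEC, where 45.8% and 55.8% of all genes were called.

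Fgfr3 had its highest mean in endothelium, at a level below the highest means of Fgfr1 and Fgfr2. It stood at 2.64, 4.20 and 7.29 FPKM (lowest, median and highest of 6) in endothelium. mTEC followed at 1.85 ± 0.790 FPKM and CD146-positive mesenchyme at 1.602 ± 0.389 FPKM, then CD140a-positive mesenchyme at 0.453 ± 0.154 FPKM and cTEC at 0.358 ± 0.166 FPKM (SD, n = 6). Endothelium lay above mTEC by 0.86 ± 0.18, and CD146-positive above CD140a-positive mesenchyme by 0.81 ± 0.18 (log2, SE; limma adjusted p = 2.10e-04 and 8.41e-04). The libraries of endothelium overlapped those of mTEC, which ran from 1.11 to 3.37 FPKM. mTEC and CD146-positive mesenchyme were not told apart (log2 difference 0.18, 95% interval -0.19 to 0.55), nor were CD140a-positive mesenchyme and cTEC (0.10, -0.27 to 0.47). Fgfr3 was above 0 in every library and lies on the plus strand at chr5:33721674-33737068. An unclassified transcript, G630022F23Rik, overlaps it on the other strand.

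FPKM is scaled to gene length, so the receptors were set against each other within a library. The annotation behind those lengths is not given, so the shares between genes are approximate. Fgfr1 made up 89.1% ± 1.95 of the summed FPKM of the 3 receptor genes in CD140a-positive mesenchyme and 81.5% ± 8.77 in CD146-positive mesenchyme (SD, n = 6). Fgfr2 made up 93.9% ± 1.37 in cTEC and 86.5% ± 2.93 in mTEC. In endothelium, Fgfr1 made up 49.2% ± 8.83, Fgfr3 40.3% ± 6.23 and Fgfr2 10.5% ± 5.68. The summed level was 48.3 ± 3.72 FPKM in cTEC, 38.7 ± 2.73 FPKM in CD140a-positive mesenchyme, 28.97 ± 4.27 FPKM in mTEC, 18.5 ± 3.34 FPKM in mesenchyme sorted by CD146 and 10.9 ± 2.49 FPKM in the endothelial libraries. The populations with the ligands Fgf7 and Fgf10 and with most Fgfr2 were thus different ones, and in CD140a-positive mesenchyme Fgfr2 was 9.72% ± 1.81 of the receptor sum.

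**Figure D2:**
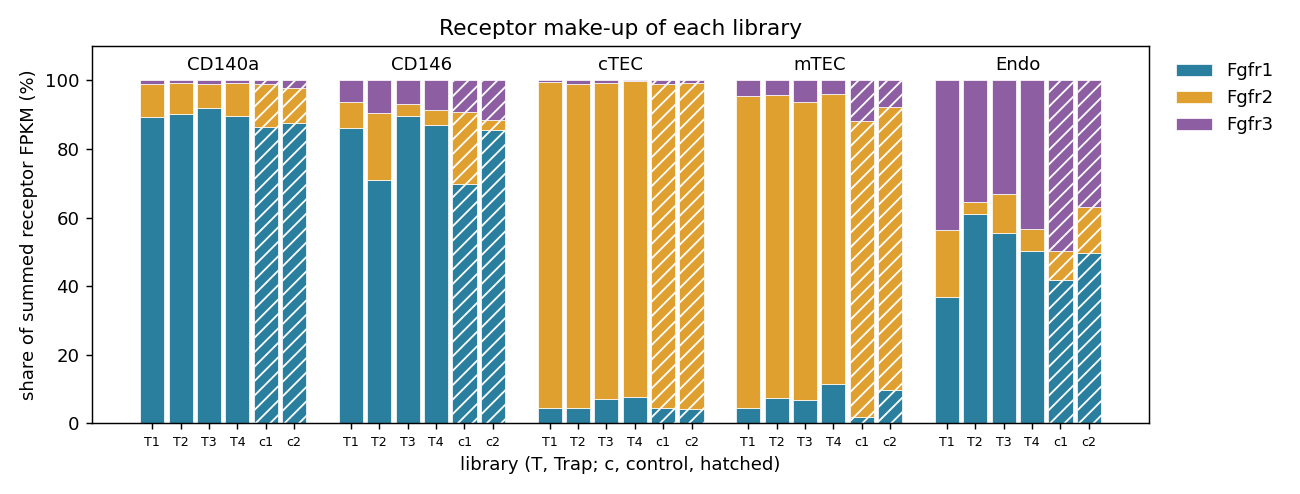
Share of the summed FPKM of Fgfr1, Fgfr2 and Fgfr3 (percent, vertical axis) in each library, with Trap libraries left of the hatched control libraries in each population. Fgfr1 fills 86.3% to 91.8% of the CD140a bars and Fgfr2 92.1% to 95.1% of the cTEC bars, while the endothelial bars are shared by Fgfr1 and Fgfr3.

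Of 20 other FGF genes, 11 reached a mean of 1 FPKM in some population. Fgf18, a ligand for the IIIc forms, averaged 81.2 ± 17.7 FPKM (SD, n = 6) in CD140a-positive mesenchyme, above Fgf7 and Fgf10, and Fgf2 averaged 26.0 ± 3.08 FPKM there. Fgf1, which binds all the receptors, averaged 28.3 ± 4.45 FPKM in CD146-positive mesenchyme, and the hormone genes Fgf23 and Fgf21 averaged 28.3 ± 11.8 FPKM in endothelium and 19.9 ± 6.10 FPKM in mTEC. Fgf14 and Fgf11, whose products stay inside the cell and are not receptor ligands, averaged 68.8 ± 5.78 FPKM and 15.3 ± 2.73 FPKM in cTEC. Fgf9 (3.39 FPKM), Fgf13 (2.93 FPKM) and Fgf5 (1.06 FPKM) had their highest mean in mTEC, and Fgf16 (2.10 FPKM) in CD140a-positive mesenchyme.

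**Figure D3:**
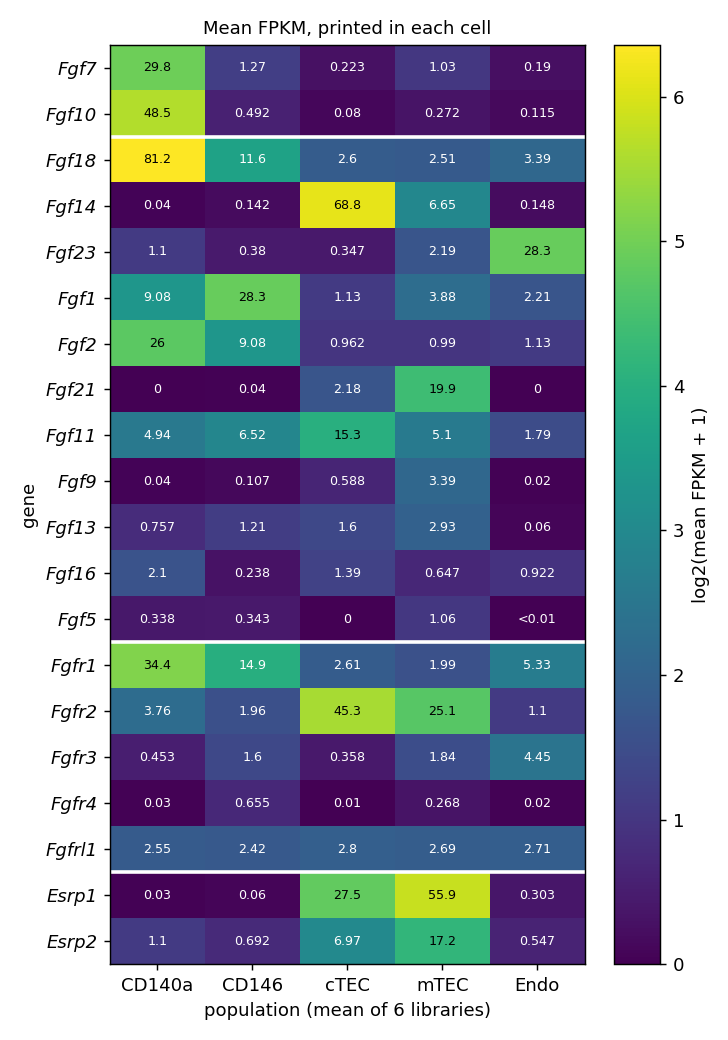
Mean FPKM over the 6 libraries of each population, printed in the cells and coloured by log2(mean FPKM + 1), for Fgf7 and Fgf10, the other FGF genes that reached 1 FPKM, the receptor genes and Esrp1 and Esrp2. Fgf7, Fgf10, Fgf18 and Fgf2 are brightest in the CD140a column, and Fgfr2, Esrp1 and Esrp2 in the cTEC and mTEC columns.

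Among other receptors and coreceptors, Fgfr4 did not exceed a mean of 0.655 FPKM. Fgfrl1, a receptor without a kinase domain, averaged 2.42 to 2.80 FPKM in every population over both treatments. In endothelium that mean joined 0.39 and 1.42 FPKM in controls with 2.95 to 4.70 FPKM in Trap libraries. Flrt3, a membrane protein that binds FGF receptors, averaged 37.4 ± 3.63 FPKM in cTEC and 37.0 ± 4.59 FPKM in mTEC and at most 10.3 FPKM elsewhere, and its relative Flrt2 averaged 41.4 ± 3.94 FPKM in CD140a-positive mesenchyme. Cdh2 (17.9 ± 2.35 FPKM) and Ncam1 (11.3 ± 11.9 FPKM), adhesion molecules that bind FGF receptors, had their highest means in CD146-positive mesenchyme. The spread of Ncam1 between libraries was larger than its mean. Flrt1 (7.43 FPKM) had its highest mean in cTEC. Among heparan sulfate carriers, the glypican genes Gpc3 (127 ± 11.1 FPKM) and Gpc4 (67.4 ± 7.93 FPKM) and the syndecan gene Sdc2 (59.4 ± 10.8 FPKM) had their highest means in CD140a-positive mesenchyme and Gpc6 (142 ± 29.3 FPKM) in CD146-positive mesenchyme. Sdc4 averaged 128 ± 22.6 FPKM in cTEC, and the perlecan gene Hspg2 averaged 179 ± 14.6 FPKM in endothelium. The FGF-releasing protein gene Fgfbp1 averaged 11.6 ± 5.02 FPKM in mTEC, and it was listed at 0 in all 12 libraries of mesenchyme. Fgfbp3 also had its highest mean in mTEC (2.04 FPKM).

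Genes listed as feedback inhibitors or targets of FGF signals did not form a single pattern. Of 18 tested, 6 were higher and 9 lower in cTEC than in the mean of the other 4 populations, 5 higher and 8 lower in mTEC, 7 and 6 in CD140a-positive mesenchyme, 7 and 2 in CD146-positive mesenchyme, and 8 and 5 in endothelium. Over all genes and the 5 comparisons 49.4% of tests were called. All genes were called higher and lower in 21.2% and 24.5% in cTEC, 38.4% and 17.5% in mTEC, 17.1% and 33.0% in CD140a-positive mesenchyme (50.1% in either direction), 18.2% and 25% in CD146-positive mesenchyme (43.2%), and 17.7% and 34.5% in endothelium (52.1%). Spry2, a Sprouty inhibitor, averaged 128 ± 20.4 FPKM in cTEC and was higher there (log2 difference 1.26 ± 0.13, SE; limma adjusted p = 8.08e-09), as was Fosl1 (95.05 ± 12.4 FPKM). Spry4 averaged 1.12 FPKM in cTEC and 4.25 FPKM in mTEC, and it was lower in each (log2 differences -3.12 and -1.48; limma adjusted p = 1.92e-15 and 3.17e-09). Dusp4, a MAP kinase phosphatase, averaged 65.6 ± 13.9 FPKM in mTEC, and Dusp6 averaged 55.9 ± 18.8 FPKM in endothelium and 36.1 ± 6.38 FPKM in cTEC. Egr1 (961 FPKM in CD140a-positive mesenchyme) and Myc (116 FPKM in cTEC), early response genes shared by many pathways, completed the 6 of highest level. All 20 genes of the relay from receptor to MAP kinase reached a mean of 1 FPKM in some population. Among those of highest level were Nras (112 FPKM) and Gab1 (102 FPKM) in cTEC and Crk (61.5 FPKM) and Mapk3 (33.3 FPKM) in endothelium.

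Both ligand genes stood lower in the Trap libraries than in the controls of CD140a-positive mesenchyme, by amounts that did not pass the test over all genes. Fgf10 stood at 38.4, 39.9, 40.0 and 45.9 FPKM in CD140a Trap replicates 1 to 4, against 64.9 and 61.9 FPKM in control replicates 1 and 2. Fgf7 stood at 29.1, 23.5, 17.99 and 29.9 FPKM in the Trap libraries, against 43.9 and 34.5 FPKM in the control libraries. All 4 Trap libraries lay below both controls for each gene, an arrangement shown by 6.79% of all genes tested in CD140a-positive mesenchyme. The mean with Trap was 0.648 of the control mean for Fgf10 and 0.641 for Fgf7.

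**Figure D4:**
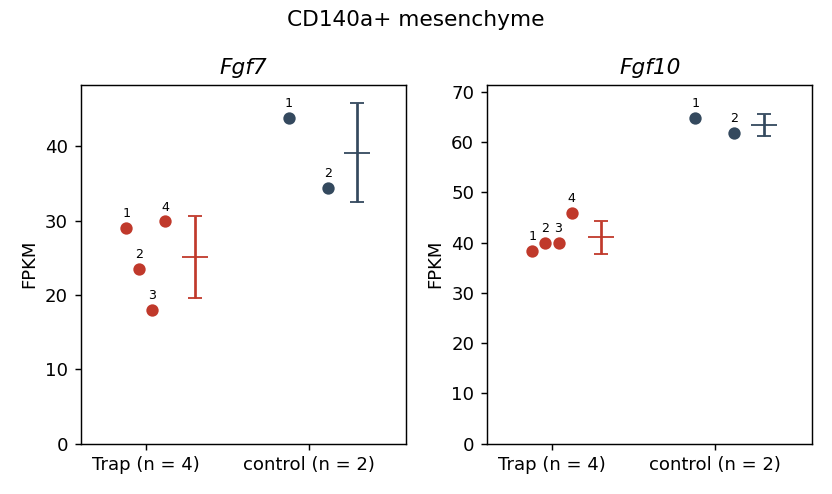
FPKM of Fgf7 and Fgf10 in the CD140a-positive libraries, Trap left of control, with the replicate number above each point and the mean ± SD beside each group. The 4 Trap points of Fgf10 lie at 38.4 to 45.9 FPKM and the 2 control points at 61.9 and 64.9 FPKM.

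In limma the change of Fgf10 was -0.62 ± 0.24 and that of Fgf7 -0.64 ± 0.31 (log2, SE), with 95% intervals of -1.12 to -0.11 and -1.27 to -0.01. The unadjusted p-values from limma were 0.0181 and 0.0476 and both adjusted p-values were 1, and 0 of 16425 genes were called in this population, or 0%, with 3.71% at an unadjusted p under 0.05. When the 6 CD140a libraries were fitted alone, the SE of Fgf10 was 0.11 and its p-value 7.98e-04, with a limma adjusted p of 0.542, and that of Fgf7 was 0.833. An exact permutation test of 4 against 2 libraries cannot go below p = 0.133, the value both genes had, two-sided. Leaving out any 1 library kept the change of Fgf10 between -0.67 and -0.58 and that of Fgf7 between -0.81 and -0.47. In sorted bulk samples, fewer cells that make a transcript and less of it per cell cannot be told apart. The 9 fibroblast markers summed to 6539 to 7338 FPKM in the Trap libraries and 6550 to 8440 FPKM in the control libraries of this population, and the 8 mural markers to 68.5 to 120 FPKM and 77.5 to 145 FPKM, so both ranges overlapped. The 7 cortical epithelial markers summed to 9.27 to 12.2 FPKM with Trap and 7.21 to 9.24 FPKM in controls, and Mcam, the gene of CD146, stood at 1.70 to 2.96 FPKM with Trap and 1.09 to 1.33 FPKM in controls, so both were higher in every Trap library. Their part in the Fgf7 and Fgf10 values was not tested. In the same libraries Fgf18 and Fgf2 did not pass either, at 83.4 ± 22.3 FPKM with Trap and 76.6 ± 1.97 FPKM in controls for Fgf18 (SD, n = 4 and 2), and at 26.4 ± 3.78 FPKM and 25.2 ± 1.62 FPKM for Fgf2.

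In the other populations the ligand genes were near the floor of the data. Fgf7 in CD146-positive mesenchyme stood at 0.76, 1.27, 0.46 and 1.37 FPKM with Trap, against 2.26 and 1.49 FPKM in controls, again with all Trap libraries below, as for 6.84% of all genes there. In mTEC it stood at 0, 1.39, 0.38 and 0.61 FPKM with Trap, against 2.72 and 1.07 FPKM in controls, and here 3 of 4 Trap libraries were below both controls. The mTEC change, -0.87 ± 0.31 (log2, SE), had the smallest p-value from limma of all 25 tests of the 5 genes (unadjusted 0.00874, adjusted 0.366), in a population where 0.347% of all genes were called and 7.49% had an unadjusted p under 0.05. It was -0.45 without mTEC control replicate 1 and -1.29 without control replicate 2. In cTEC and endothelium Fgf7 did not exceed 0.53 FPKM in any library. Fgf10 stayed under 1 FPKM in both treatments in all 4 populations.

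No receptor gene passed the test with Trap in any population, and 0.0183% of all genes were called in CD146-positive mesenchyme and 0.00609% in cTEC. Fgfr1 in CD146-positive mesenchyme stood at 15.3, 16.3, 17.1 and 16.4 FPKM with Trap, against 13.6 and 10.8 FPKM in controls, so all Trap libraries were above, as for 5.80% of all genes there (0.39 ± 0.27, log2, SE; limma adjusted p = 1). In CD140a-positive mesenchyme Fgfr1 stood at 33.9, 36.2, 34.1 and 38.2 FPKM with Trap, against 33.99 and 30.4 FPKM in controls, and the groups overlapped. The 5 epithelial markers summed to 2.89 to 5.18 FPKM in the Trap and 0.41 to 1.54 FPKM in the control libraries of CD146-positive mesenchyme, and their part in the Fgfr1 and Fgf7 values there was not tested. The change of Fgfr1 lay above 0 on the log2 scale in all 5 populations with every library in the fit, but it was -0.09 in mTEC without mTEC control replicate 1 and -0.15 in endothelium without endothelium control replicate 2. Its mean change over the populations was 0.31 ± 0.12 (log2, SE), with an unadjusted p of 0.0164 and an adjusted p of 0.290 from limma. Without 1 library the mean change ranged from 0.20, without mTEC control replicate 1, to 0.43.

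Fgfr2, the receptor gene of the epithelium, stood at 46.3, 45.4, 43.1 and 49.3 FPKM in cTEC with Trap, against 47.6 and 40.2 FPKM in controls. In mTEC it stood at 32.0, 29.1, 22.0 and 23.4 FPKM with Trap, against 24.2 and 20.2 FPKM in controls. The groups overlapped in both, and the 95% intervals of the change were -0.76 to 0.90 in cTEC and -0.58 to 1.07 in mTEC, so changes of up to about 1 log2 unit are not shown to be absent. The 10 thymocyte markers summed to 96.1 to 153 FPKM in the Trap and 59.6 to 93.1 FPKM in the control libraries of cTEC, and their part in the Fgfr2 values was not tested. Its mean change over the populations was -0.01 ± 0.18 (log2, SE).

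Fgfr3 in endothelium stood at 4.50, 4.15, 3.85 and 4.24 FPKM with Trap, all between the control values of 7.29 and 2.64 FPKM. In mTEC it stood at 1.61, 1.46, 1.62 and 1.11 FPKM with Trap, against 3.37 and 1.90 FPKM in controls, with all Trap libraries below, as for 8.40% of all genes there (-0.54 ± 0.25, log2, SE; limma unadjusted p = 0.0422, adjusted 0.642). The mTEC change was -0.25 without mTEC control replicate 1 and -0.84 without control replicate 2. The 7 medullary markers summed to 1343 to 2748 FPKM in the Trap and 1048 to 1668 FPKM in the control libraries of mTEC. The 7 cortical markers summed to 113 to 139 FPKM in the Trap and 141 to 151 FPKM in the control libraries, without overlap. The 4 erythroid markers summed to 40.65 FPKM in control replicate 1, against 12.6 to 20.7 FPKM in the other 5 mTEC libraries. The part of these cell types in the Fgfr3 and Fgf7 values was not tested.

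**Figure D5:**
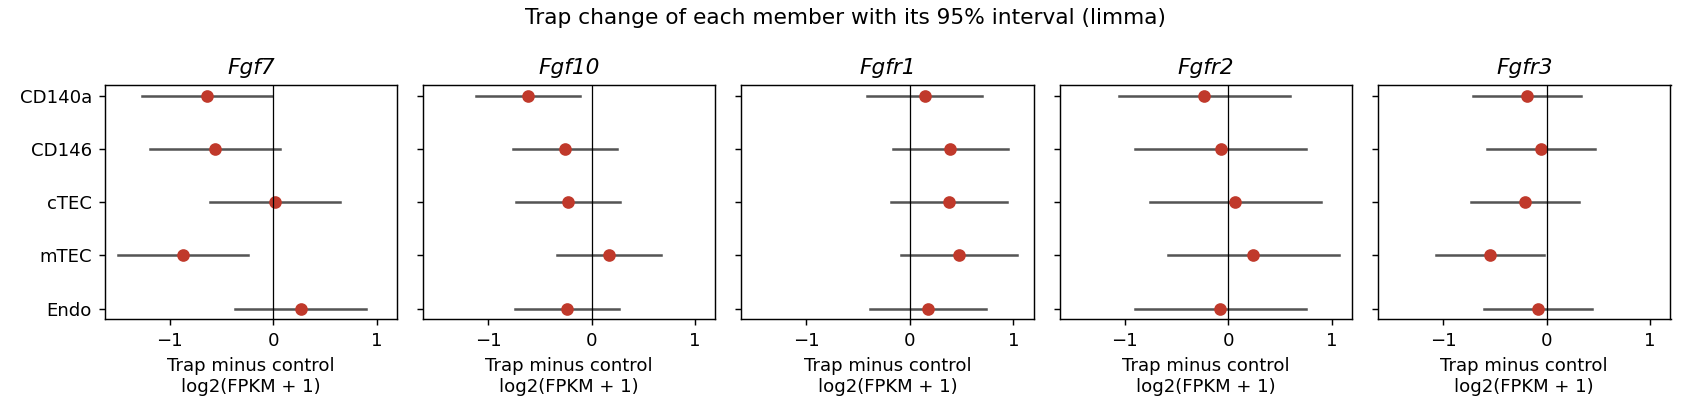
Trap minus control on the log2(FPKM + 1) scale (horizontal axis) for each gene and population, as points with 95% intervals from limma. Most of the 25 intervals cross 0; those of Fgf7 in CD140a and mTEC, Fgf10 in CD140a and Fgfr3 in mTEC do not, and none of the 25 was called after adjustment over all genes.

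Over the 25 tests of a gene in a population, 0 were called by limma, 4 had an unadjusted p under 0.05, 15 changes were below 0 and 10 above. Over all genes and the same 5 comparisons 0.423% of tests were called and 6.68% had an unadjusted p under 0.05. All 4 Trap libraries lay below both controls in 4 of the 25, or 16.0%, and above both in 1, or 4.0%, where the shares over all genes were 7.88% and 5.40%. The smallest adjusted p of the 25 was 0.366. The mean Trap change over the 5 populations was -0.36 ± 0.14 for Fgf7, -0.23 ± 0.11 for Fgf10 and -0.22 ± 0.11 for Fgfr3 (log2, SE), with limma adjusted p-values of 0.281, 0.397 and 0.473, and 0 of the 5 genes were called in a comparison that called 0.426% of all genes, with 3 of the 5 (Fgf7, Fgf10 and Fgfr1) at an unadjusted p under 0.05, where 11.9% of all genes were. A test of whether the Trap change differed between populations called 0 of the 5 by limma as well, with 0 at an unadjusted p under 0.05 (smallest, for Fgf7, 0.0736, adjusted 0.881), and 0.0974% of all genes.

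Around these genes, 5 of 92 tested genes of the pathway lists were called with Trap, all 5 of them in endothelium, where 1.74% of all genes were called. Membership of a list does not show that FGF signals moved a gene, and the signal behind these calls was not tested. Of the 5, 4 were lower and 1 higher, directions in which 1.42% and 0.323% of all genes were called. Spry4, the Sprouty inhibitor, stood at 21.5, 18.9, 21.8 and 22.7 FPKM in endothelium with Trap, against 40.7 and 51.1 FPKM in controls (-1.07 ± 0.27, log2, SE; limma adjusted p = 0.0366). Ccnd1, the cyclin that drives entry into the cell cycle, stood at 11.4, 9.48, 7.84 and 1.99 FPKM with Trap, against 55.1 and 29.7 FPKM in controls (-2.44 ± 0.43; limma adjusted p = 0.00408). In both genes all Trap libraries lay below both controls, as in 7.88% of tests over all genes and the 5 populations. Both are shown because they were called, so this separation adds no support.

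The glypican gene Gpc4 stood at 3.78, 4.43, 5.57 and 7.14 FPKM in endothelium with Trap, against 17.1 and 10.4 FPKM in controls (-1.23 ± 0.25; limma adjusted p = 0.0107). Fgf16 stood at 0.13, 0, 0.30 and 0 FPKM with Trap, against 4.20 and 0.90 FPKM in controls (-1.51 ± 0.37; limma adjusted p = 0.0320). Fgfrl1 was the 1 gene that rose, to 3.21, 4.70, 2.95 and 3.59 FPKM with Trap, against 0.39 and 1.42 FPKM in controls (1.32 ± 0.31; limma adjusted p = 0.0275). These calls borrowed their spread from all populations, and a fit of the endothelial libraries alone called 0 of all 15741 genes tested. When the endothelial libraries were fitted alone 0 of the 5 were called, and without endothelium control replicate 1 none of the 5 was called either (limma adjusted p = 0.0932 for Ccnd1 to 0.526 for Fgf16). Without Trap replicate 2, the library with more epithelial marker RNA, Gpc4 and Ccnd1 were still called and Spry4, Fgf16 and Fgfrl1 were not (adjusted p = 0.0702, 0.0572 and 0.0572). The Spry4 call was also lost with a pseudocount of 0.1, as TPM, after quantile normalization and without control replicate 2 or Trap replicate 4 (limma adjusted p = 0.0591, 0.0677, 0.0683, 0.178 and 0.0507). The Fgf16 call was also lost after quantile normalization and without Trap replicate 4 (limma adjusted p = 0.0501 and 0.0588). The 9 fibroblast markers summed to 102 to 137 FPKM in the Trap and 58.6 to 84.6 FPKM in the control libraries of endothelium, with 1 of the 9 at 0 in each control. The 8 endothelial markers summed to 1394 to 1459 FPKM in the Trap and 1527 to 1535 FPKM in the control libraries, again without overlap. The 4 erythroid markers summed to 68.5 to 104 FPKM in the Trap libraries and to 9.18 and 72.6 FPKM in control replicates 1 and 2. The part of these differences in the 5 calls was not tested.

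For each gene, the 3 genes of most similar pattern were taken by the root mean square difference of log2(FPKM + 1) over the 30 libraries, after each gene's own mean was subtracted. For Fgf10 these were Lvrn, an aminopeptidase gene (0.353), the protocadherin gene Dchs2 (0.420) and Tmeff2 (0.476), and for Fgf7 the BMP antagonist gene Chrdl1 (0.445), Shisa3 (0.488) and the dynamin gene Dnm1 (0.513). For Fgfr1 they were P3h1 (0.452) and P3h3 (0.469), prolyl hydroxylases of collagen, and the transcription factor gene Creb5 (0.464). Those of Fgfr2 were Srxn1 (0.443), which encodes sulfiredoxin, the adhesion molecule gene Alcam and the RAC exchange factor gene Tiam1 (both 0.518). The nearest to Fgfr3 were Pik3r3 (0.347) and Id1 (0.349).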

How the data were processed

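Sorted-cell RNA was amplified (Ovation V2 kit), made into KAPA LTP libraries and read in pairs on a HiSeq3000, per the labels' protocols. The submitters' processing notes name bcl2fastq 2.17, STAR, DESeq2, GRCm38 and mm10; what each did, and the annotation used, is not given in the sources used here. Per gene, the authors deposited FPKM, rounded to 2 decimals. The smallest value above 0 was 0.01 in all 30 libraries, so the worth of 1 read could not be recovered, and depth is unknown. The identifiers of all 5 genes equal those of GENCODE M21.

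Values were taken as log2(FPKM + 1), genes reaching 1 FPKM in 2 libraries were kept, and 10 group means were fitted in limma 3.58.1 (R 4.3.3) over the 30 libraries, moderated by empirical Bayes with a variance trend. Tests were two-sided, with Benjamini-Hochberg adjustment and a threshold of 0.05. Such log2 differences understate changes at low levels. The code was tested on simulated data. The 5 genes, the lists and the naming rule (every listed gene called with Trap, the 6 highest of a list, FGF genes at 1 FPKM) were chosen with earlier results of these data known. Alternatives were a pseudocount of 0.1, no filter or 5 FPKM, TPM, upper quartile and quantile scaling, 1 weight per population, replicate blocks, each population alone and leaving out each library. Coordinates are from GENCODE M21. Promoters are from RefSeq, whose table matched Fgf7, Fgf10, Fgfr2 and Fgfr3. The exon is from the GENCODE transcripts. A few genes that the naming rule covers, and 1 sequence, are not reported here.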

Additional observations from a re-analysis of the deposited data

Results flagged for a closer look

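In cTEC with Trap, Fgf10 was listed at 0 in 3 libraries and at 0.05 FPKM in the other, which set that library apart by the gap to its neighbours relative to the range (Dixon's criterion for 4 values). The smallest value above 0 in the table is 0.01 FPKM. Of 25 groups examined in this way 1 stood out. With 3 of 4 values tied at 0, any other value above 0 is marked, so the mark says nothing about that library. The usual rate of about 1 in 20 by chance does not hold for values tied at the floor.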

How the results depend on the processing

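Among the 5 genes, 0 Trap calls, 0 calls of the mean change and 0 of the difference between populations were made under each alternative run and without each library. The 39 calls between population pairs ranged from 37 to 40 without 1 library, the 23 of 25 calls of a population against the other 4 from 21 to 24, and the 292 such calls of the pathway lists from 280 to 296 (292 of 460 tests; over all genes 49.4% of such tests were called). The 5 Trap calls of the pathway lists ranged from 1 to 7 without 1 library; they were 1 and 7 without endothelium control replicates 1 and 2, 2 without Trap replicate 2 and 3 without Trap replicate 4. They were 4 with a pseudocount of 0.1, 4 as TPM and 3 at a filter of 5 FPKM, which removes Fgf16, Fgfrl1 and Fgfr3. They were 3 after quantile normalization, 0 with 1 weight per population and 0 with each population alone. The cause of the last 3 was not tested. The fits of each population alone called 0 of all genes in every population. One called comparison changed sign: Fgfr3 in mTEC against the other 4 populations was 0.35 (limma adjusted p = 0.0368) and -0.19 after quantile normalization (adjusted p = 0.271), which moved the median of all genes in that comparison by -0.33. In 18 further cases a difference that passed in neither fit changed sign. With a pseudocount of 0.1 these were Fgf7 in CD146-positive mesenchyme against the rest (0.28) and the Trap change of Fgfr2 in CD146-positive mesenchyme (0.0907); as TPM, the same 2 (0.15 and 0.0746), the mean Trap change of Fgfr2 (0.002, and 0.0012 with upper quartile scaling) and Fgfr3 in CD146-positive mesenchyme against mTEC (0.0062). After quantile normalization they were Fgf7 with Trap in cTEC (-8e-04), Fgf7 in cTEC against endothelium (-0.0464), Fgf10 in cTEC against mTEC (0.0827) and in mTEC against endothelium (-0.27), Fgfr2 with Trap in endothelium (0.115) and over the populations (0.0425), Fgfr3 with Trap in endothelium (0.0206) and Fgfr3 in CD146-positive mesenchyme against mTEC (0.31). With the number as a replicate block, Fgfr2 with Trap changed sign in CD146-positive mesenchyme (0.0919), in endothelium (0.0863) and over the populations (0.15). The cause was not tested. Leaving out 1 library changed the sign of 15 differences. The Trap changes among them ranged, for Fgf7 in cTEC, from -0.14 to 0.18, for Fgf10 in cTEC from -0.48 to 0.0176 and in endothelium from -0.53 to 0.0625, for Fgfr1 in mTEC from -0.0936 to 1.049 and in endothelium from -0.15 to 0.4987, for Fgfr2 in CD146-positive mesenchyme from -1.03 to 0.89, in cTEC from -0.0482 to 0.19, in endothelium from -0.27 to 0.0933 and over the populations from -0.21 to 0.18, and for Fgfr3 in CD146-positive mesenchyme from -0.17 to 0.0375 and in endothelium from -0.68 to 0.509. The population pairs were Fgf7 in CD146-positive mesenchyme against mTEC (-0.0198 to 0.403), Fgf10 in cTEC (-0.20 to 0.1015) and mTEC (-0.0449 to 0.25) against endothelium, and Fgfr2 in CD146-positive mesenchyme against endothelium (-0.17 to 0.79). Correlations of same-numbered Trap and control libraries of 1 population ran from -0.28 to 0.08 (median 0.02). Same-numbered libraries of 1 treatment in 2 populations had medians of 0.032 (control) and 0.022 (Trap, highest 0.102), against -0.032 and -0.008 for different numbers. These correlations are of deviations from group means. With 2 controls per group, the control value for different numbers is the same-number value with its sign reversed, so it adds nothing. The check cannot exclude pairing, and the numbers were taken as labels only. With the number as a replicate block the Trap calls were again 0 among the 5 genes and 5 in the lists. With a block of treatment and number, 40 pairs and 24 of the other comparisons were called. Unknown depth and 2 controls per population limit what a test could show.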
